A study of Mus musculus with 20 samples.

Results

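Myod1 encodes MyoD, the basic helix-loop-helix transcription factor that commits cells to skeletal muscle. The data are ATAC-seq peak lists, in which a peak marks DNA that a transposase could enter. The elements described here were chosen by position alone: all peaks of all lists within 40 kb of the Myod1 gene (chromosome 7, 46376474 to 46379092, GRCm38, 2619 bp) were taken, and peaks of different lists that shared at least 1 bp were joined into 1 element. This gave 17 elements, made of 169 peaks, of 101352 such regions and 787806 peaks in the whole series. Each element is named by the distance of its middle from the Myod1 start, minus for the side before the gene.

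The 20 libraries came from C2C12, a mouse myoblast line that forms muscle cells in culture. Cells were wild type (WT, replicates 1 and 2) or Setd2 knockout (KO, lines 1 and 2, 1 library of each per condition), and how the knockout was made is not given in the sources used here. Cells of both genotypes were taken at D0. At D1 and D5 they had been kept either in control medium (CTL) or with restricted methionine (methionine restriction, MR), which gives 10 groups of 2 libraries. The series concerns methionine supply and the histone mark H3K36me3 in differentiation. Setd2 is the methyltransferase that places this mark, with methyl groups that derive from methionine. Nothing in the labels says that libraries of a group came from separate cultures, so the spread between WT replicates may be technical, while KO libraries of a group also differ by line.

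In muscle cells Myod1 is controlled by its promoter and by distal enhancers on its upstream side. The distal regulatory region, a few kilobases before the start, acts mainly in differentiated muscle, and the core enhancer, further away, acts in the embryo and in myoblasts. MyoD binds DNA together with E proteins, is held back by Id proteins and other inhibitors, and turns on Myog, the next factor of the cascade, and muscle structural genes. These enhancers were looked for in windows set at 6.5 to 3.5 kb and 24 to 18 kb before the start.

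The lists differed in length. In 18 libraries they held 20847 to 69881 peaks, and the background, the fragments per position recovered from the lists as the measure of depth, was 1.42 to 5.88. The D5 lists of KO line 1 held 644 peaks in CTL and 1881 in MR at a background of 0.128 and 0.101, and they had 0 of the 17 elements. They were left out of the tests, so KO at D5 is line 2 alone. Among the 18 libraries the background was 3.17 to 5.88 in WT and 1.42 to 5.20 in KO. The Setd2 gene end was called in 18 of 20 libraries, 10 of them WT and 8 KO, which does not check the edit. Of 7 myoblast markers, Des, Cdh15, Chrna1 and Chrnb1 were called at a gene end in 18 of 18 libraries, Myod1 at either end in 17, Msc in 4 and Myf5, another early myogenic factor, in 0. The endothelial markers Cdh5, Pecam1 and Tek were called in 0. Of the other lineages' markers, Cebpa was called in 18, Pparg in 17 and Krt8 in 10. How often other genes are called at a gene end is not given.

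A call means that a library has a peak in the element. To compare strength across lists of different length, the −log10 q of the authors' peak was set against 11144 reference regions that all 18 libraries share. The reference percentile is the percent of these regions that ranked lower in the same list. It is a rank within a list, so a change shows strength relative to the other shared regions, not an absolute amount of open chromatin.

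**Figure D1:**
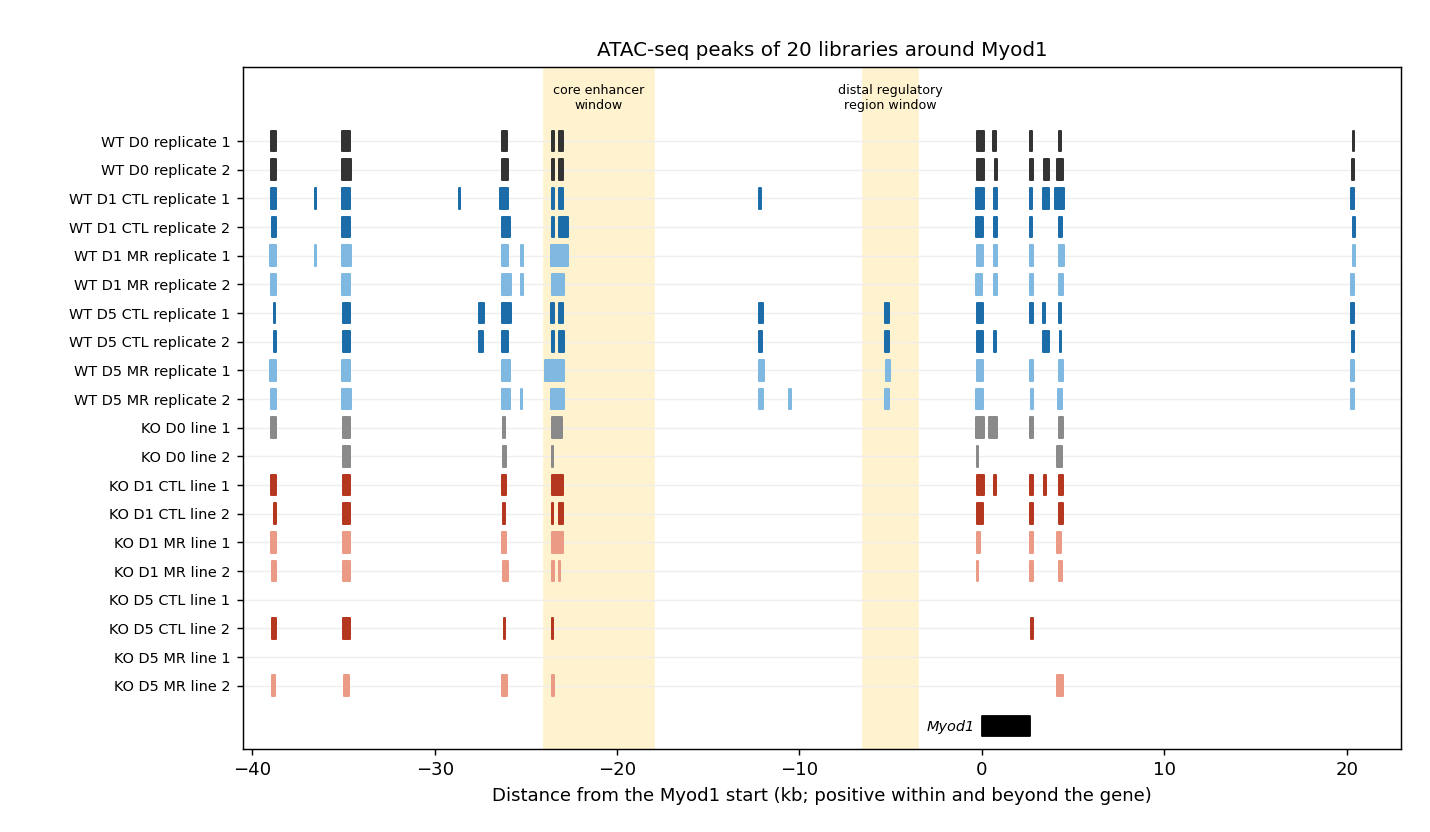
Called peaks of the 20 libraries (rows) by distance from the Myod1 start in kb. Shaded bands mark the windows of the core enhancer and of the distal regulatory region, and the black bar is the Myod1 gene. The element near −5.2 kb has peaks in the 4 WT D5 libraries, the element near 20.3 kb in all 10 WT libraries and no KO library, and the D5 lists of KO line 1 have none of the elements.

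Most of the open sites lay before the gene. There were 11 elements between −38.8 and −5.2 kb, 1 over the start, 1 inside the gene at 0.6 kb, and 4 after it, at 2.7, 3.5, 4.3 and 20.3 kb. In the annotation the −5.2 kb element overlapped Gm45923, the start and 0.6 kb elements Myod1, and the 20.3 kb element Kcnc1, a potassium channel gene. The other 13 elements were intergenic. At the edges of the window, the nearest regions outside it lay 48.3 kb and 43.8 kb from the gene with 5 and 3 calls, and the outermost elements inside lay 38.67 kb and 17.62 kb from it with 17 and 10 calls.

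WT libraries held 9 to 13 of the elements and KO libraries 5 to 9. Of the 17 elements, 9 were called in both genotypes, 8 in WT only and 0 in KO only. Over all regions, 21.8% were called in WT and no KO library, and 20.1% in KO and no WT library, where 10 WT and 8 KO libraries were set against each other. In WT at D5 in CTL the elements came to 12 in each library although these lists were the shortest of WT, with 22465 and 20847 peaks.

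The −34.8 kb element (chromosome 7, 46341390 to 46341869, intergenic) was called in 18 of 18 libraries and was among the strongest sites of the locus in WT. Its reference percentile was 67.4 and 82.4 in WT D0, 64.4 and 58.6 in WT D1 CTL, 79.6 and 77.5 in WT D1 MR, 60.6 and 75.3 in WT D5 CTL, and 91.5 and 88.9 in WT D5 MR. In KO it was 1.57 and 41.5 at D0, 3.13 and 2.68 at D1 CTL, 7.17 and 27.8 at D1 MR, and 16.5 and 4.16 at D5 CTL and D5 MR (lines 1 and 2 in this order, line 2 alone at D5). Every KO library lay below every WT library, including those of other conditions. The element thus ranked at 74.6 on average in WT and 13.1 in KO.

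The KO minus WT difference at −34.8 kb, averaged over the 5 conditions, was −62.1 points (exact permutation p = 0.000514, Benjamini-Hochberg adjusted p = 0.00834 over all reference regions). It was negative in 5 of 5 conditions. In the same test 22.2% of reference regions passed, 1249 higher and 1223 lower in KO (559 and 1110 when ranked among all peaks of the list). Of the 11144 regions, 12 fell further, and the middle 90% of them lay between −28.8 and 25.7 points with a median of 0.53. The call is lost in 1 alternative with another ranking and in 4 with fewer libraries: ranked by width the difference was −11.5 (adjusted exact permutation p = 0.147), and −57.7 (0.0878) with D5 left out. Without WT replicate 1, WT replicate 2 or KO line 2 it was −64.0, −60.2 and −67.7, with adjusted exact permutation p of 0.158, 0.154 and 0.132.

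The −26.1 kb element (46350033 to 46350648, intergenic) was also called in 18 of 18 libraries and ranked high in WT. Its reference percentile was 85.8 and 90.3 in WT D0, 78.7 and 81.4 in WT D1 CTL, 46.2 and 50.9 in WT D1 MR, 82.8 and 96.4 in WT D5 CTL, and 81.4 and 78.2 in WT D5 MR. In KO it was 0.35 and 59.1 at D0, 17.7 and 40.8 at D1 CTL, 10.1 and 7.49 at D1 MR, and 0.31 and 20.7 at D5 CTL and D5 MR. KO lay below WT in each condition without overlap, although line 2 at D0 exceeded the WT D1 MR libraries. The lines differed most at D0, where line 1 was near the bottom of the reference regions.

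Its KO minus WT difference was −59.4 points (exact permutation p = 0.000514, adjusted p = 0.00834), in 5 of 5 conditions, and 21 reference regions fell further. Its peaks were also narrower, 278 to 491 bp in WT and 84 to 250 bp in KO, with no overlap, and ranked by width the difference was −43.2 points (adjusted exact permutation p = 0.0422). The same 4 settings with fewer libraries lost the call: −49.6 without the D5 libraries (adjusted exact permutation p = 0.0878), −61.7 and −57.2 without WT replicate 1 and 2 (0.158 and 0.154), and −62.8 without KO line 2 (0.132). Without KO line 1 the calls at −34.8 and −26.1 kb were kept, at −56.1 and −51.5 points (adjusted exact permutation p = 0.0220 each).

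Among 16 reference regions within 1 Mb of Myod1, other than its own elements, the median KO minus WT difference was 5.03 points, with 0 lower and 2 higher past the threshold, and the lowest value was −13.5. Within 5 Mb there were 54 such regions with a median of 7.94 points, 2 lower and 8 higher, and the lowest value was −36.8. For the 650 regions of chromosome 7 the median was 2.46 points, with 59 lower and 83 higher, and the lowest value, −71.3, was also the lowest of all reference regions.

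**Figure D2:**
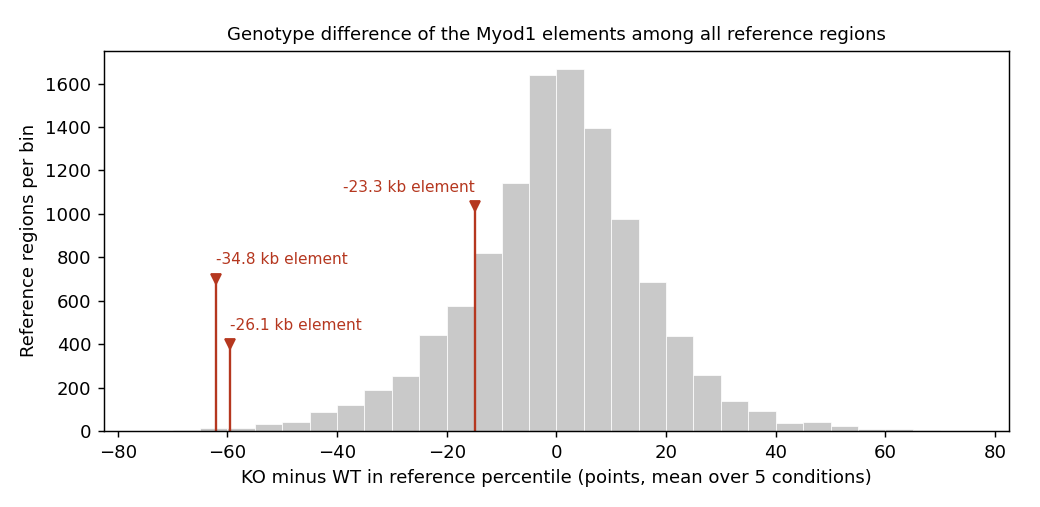
Histogram of the KO minus WT difference in reference percentile over the 11144 reference regions (x axis in points, y axis in regions per bin), with the 3 Myod1 elements of the reference set marked. The −34.8 and −26.1 kb elements lie at −62.1 and −59.4 points, in the far left tail, and the −23.3 kb element at −14.9.

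The −38.8 kb element (46337462 to 46337804) was the outermost one, found in 10 of 10 WT libraries and 7 of 8 from KO, with line 2 at D0 as the exception. Its reference percentile was 10.5 to 38.3 in WT and 2.50 to 15.6 in the 7 KO libraries. KO lay below WT at D1 CTL, D1 MR and D5 MR, and inside the WT range at D5 CTL, where WT had 10.5 and 28.2 and KO line 2 had 15.6. The difference in calls was not testable, since 1 missing call cannot reach p of 0.05. Counted among the 20000 strongest peaks of each list, the KO minus WT difference in call share was −0.6 and passed (adjusted exact permutation p = 0.0443). In that setting 28% of 10319 testable regions passed, 1368 higher and 1525 lower in KO. In the other settings the difference at −38.8 kb was 0 to −0.3 and did not pass. In WT D5 CTL the peaks were 72 and 65 bp wide, against 244 to 334 bp in the other WT libraries.

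The −23.3 kb element (46352546 to 46353778, intergenic) lay in the window of the core enhancer and was the only one there. It was called in 18 of 18 libraries. Its reference percentile was 3.65 and 15.6 in WT D0, 11.7 and 21.3 in WT D1 CTL, 9.56 and 14.8 in WT D1 MR, 62.2 and 49.95 in WT D5 CTL, and 32.7 and 22.8 in WT D5 MR. In KO it was 0.82 and 1.01 at D0, 1.66 and 4.97 at D1 CTL, 6.77 and 11.2 at D1 MR, and 11.2 and 23.3 at D5 CTL and D5 MR. In both genotypes the D5 values were the highest of their medium. In WT the element ranked low until D1 and near the middle of the reference regions at D5 in CTL.

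Over both genotypes and media, D5 exceeded D1 by 19.3 points (exact permutation p = 0.00309, adjusted p = 0.0484), in 4 of 4 strata. In this test 6.37% of reference regions passed, 341 higher and 369 lower (55 and 3681 when ranked among all peaks of the list). The call is close to the threshold. It held when peaks were ranked by fold enrichment, at 18.2 points (adjusted exact permutation p = 0.0411), and was lost in the other settings that could be run. With libraries paired in a replicate block it was 18.4 points (adjusted exact permutation p = 0.154). Without WT replicate 1, WT replicate 2 or KO line 1 it was 14.7, 23.9 and 18.4 points (adjusted exact permutation p = 0.277, 0.273 and 0.0809). Among all peaks of the list the difference was −0.57, and by width −16.3.

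KO lay below WT at −23.3 kb by −14.9 points (exact permutation p = 0.00206, adjusted p = 0.0171), with a lower mean in 5 of 5 conditions, but the libraries overlapped at D1 MR and D5 MR, and 16.03% of reference regions fell further. This call was lost without either WT replicate, without either KO line and without the D5 libraries, with −8.35 to −15.3 points (adjusted exact permutation p = 0.0605 to 0.206). It was also lost when peaks were ranked by fold enrichment, at −12.8 points (0.0516), or by width, at −45.0 points (0.0973).

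The element had 2 parts, to either side of −23.3 kb. The part further from the gene was found in all 18 libraries, and the part nearer to the gene in 10 of 10 WT libraries and 5 of 8 from KO. The 3 libraries with the far part alone were line 2 at D0, D5 CTL and D5 MR, with peaks of 87, 84 and 137 bp. Of 6 WT libraries with separate peaks over the parts, the near one was stronger in 5, and of 2 such KO libraries, both of line 2 at D1, in 0. All 4 WT MR libraries instead had 1 peak over both parts, 929, 650, 1026 and 723 bp wide, and so did the 3 KO line 1 libraries, at 574, 619 and 614 bp. In WT D0, D1 CTL and D5 CTL the summed widths were 309 to 591 bp. Peaks of the whole lists also differed in width. Their median was 155 to 171 bp in WT MR, 164 to 195 bp in these KO line 1 libraries and 130 to 160 bp in the other WT libraries. How often peaks join at other regions is not given, and the part of list-wide width was not tested. Joined and separate peaks are as the authors' lists give them. The parts were divided after their positions had been seen, and their counts were not tested.

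**Figure D3:**
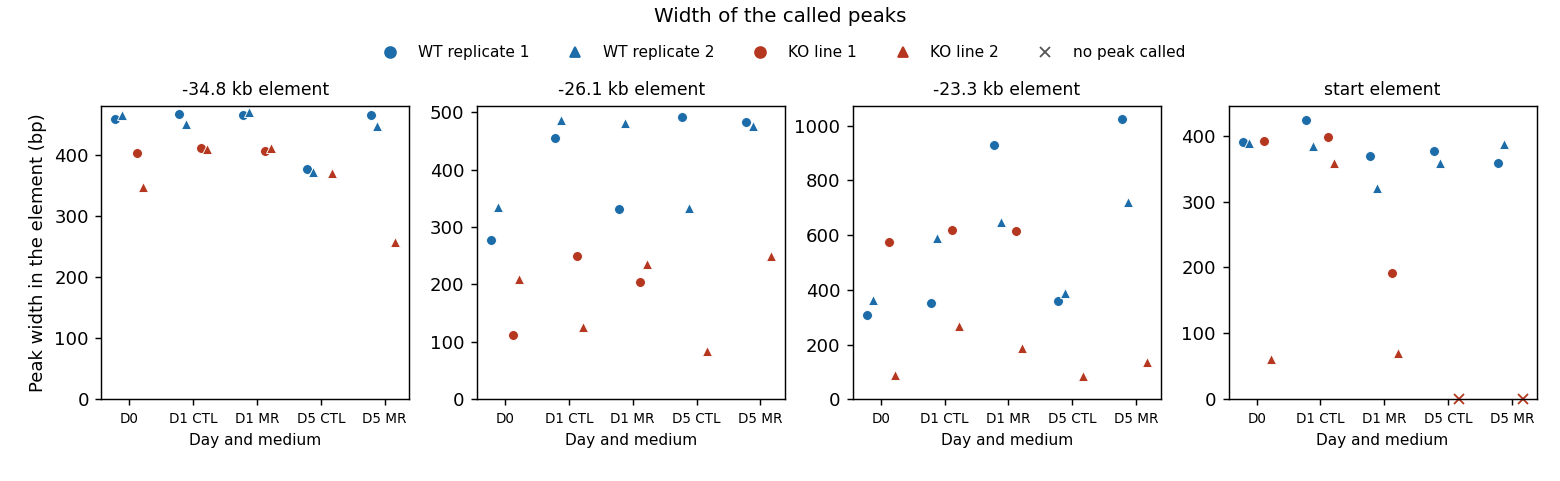
Width in bp of the called peaks (y axis, summed where an element held 2 peaks) by day and medium for 4 elements. Circles are WT replicate 1 or KO line 1, triangles WT replicate 2 or KO line 2, and crosses libraries with no call. At −26.1 kb all KO peaks are narrower than all WT peaks, and at −23.3 kb the WT MR libraries are widest.

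The −5.2 kb element (46371180 to 46371429) was the only one in the window of the distal regulatory region. It overlapped the lower-coordinate edge of Gm45923 (46371403 to 46372492), a long noncoding RNA gene that the RefSeq table also lists as DRReRNA and Munc. It was called in the 4 WT D5 libraries and in 0 of the other 14, KO line 2 at D5 included. Its reference percentile was 57.8 and 53.1 in CTL and 19.3 and 22.9 in MR, its −log10 q was 8.87, 7.70, 10.2 and 10.0, and its width was 184 to 234 bp. The lowest −log10 q of these 4 lists was 1.06 to 1.39, so the calls did not lie at the lower end of the lists.

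This pattern of calls, all 4 WT D5 libraries and no other, was shared by 52 of 101352 regions, 0.0513%, and 1 of the 52 lay within 1 kb of a gene end. The pattern was counted after it had been seen. The design gives it little room for a test: the D5 minus D1 difference in call share was 0.5 (exact permutation p = 0.0556) and the KO minus WT difference −0.4 (exact permutation p = 0.111), neither of which the calls allow to pass. For calls as a whole, 0% of 14311 testable regions passed for D5 against D1, with 7166 at an unadjusted p under 0.05. KO line 2 at D5 had a background of 1.84 in CTL and 1.42 in MR, against 5.17 to 5.88 in WT at D5, and the part of depth in the missing calls was not tested. In WT the background was also higher at D5 than at D1, where it was 3.17 to 3.53. At D0, where the element had no call either, the background was 4.71 and 5.38 in WT. In KO at D0 it was 5.20 in line 1 and 2.52 in line 2.

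The −12.1 kb element (46364241 to 46364511, intergenic) had nearly the same calls: the 4 WT D5 libraries and WT D1 CTL replicate 1, and no KO library. It ranked at 21.5 and 43.6 in WT D5 CTL, at 1.02 and 0.42 in WT D5 MR, and at 0.09 in the D1 library. The −27.4 kb element was called in WT D5 CTL alone, at 12.6 and 13.6. The remaining 4 elements before the gene were called in 1 to 3 WT libraries and no KO library, with reference percentiles of at most 0.31: the −36.5, −28.7, −25.2 and −10.5 kb elements. The −25.2 kb element was called only in MR, in both WT D1 MR libraries and 1 WT D5 MR library.

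The element over the Myod1 start (46376146 to 46376583), which holds the promoter, was found in 10 of 10 WT libraries and 6 of 8 from KO. Its reference percentile was 12.9 and 9.23 in WT D0, 27.3 and 38.2 in WT D1 CTL, 10.4 and 11.5 in WT D1 MR, 54.2 and 48.5 in WT D5 CTL, and 3.5 and 20.1 in WT D5 MR. In KO it was 5.40 and 0.14 at D0, 1.15 and 1.21 at D1 CTL, and 9.78 and 0.52 at D1 MR, and line 2 had no call at D5 in either medium. By reference percentile the WT promoter ranked highest in D5 CTL and next in D1 CTL, and KO stayed at 9.78 or lower.

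The calls at the start gave a KO minus WT difference of −0.4 in call share (exact permutation p = 0.111), which could not pass. Among the 20000 strongest peaks of each list it was −0.8 and passed (adjusted exact permutation p = 0.0403), in the setting where 28% of testable regions did. With a peak covering 50% of the region it was −0.7 (adjusted exact permutation p = 0.0768) and with a −log10 q of at least 2 it was −0.6 (0.0676). It was 0 without KO line 2. Absence from KO line 2 at D5 alone was seen in 446 of the 13007 regions called in the other 16 libraries, 3.43%. In KO line 2 the peak was also narrow at D0 and D1 MR, with 61 and 70 bp, against 320 to 424 bp in WT, and it was 359 bp at D1 CTL. Line 1 had 392, 398 and 191 bp at D0, D1 CTL and D1 MR.

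**Figure D4:**
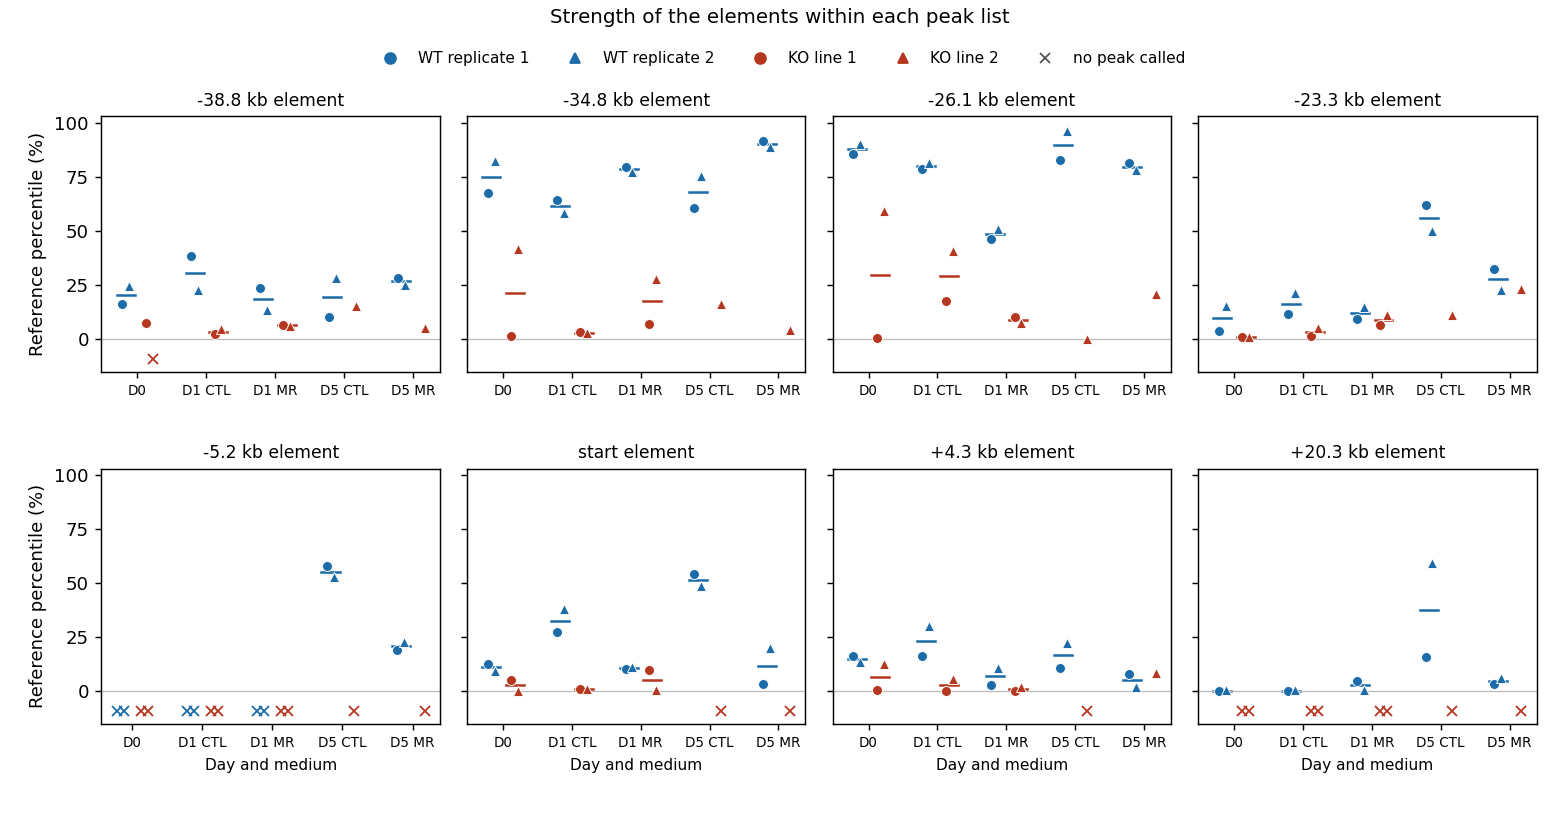
Reference percentile (y axis, percent of reference regions ranked lower in the same list) of 8 elements by day and medium. Blue is WT and red is KO, circles replicate or line 1, triangles replicate or line 2, bars the means of 2 libraries, and crosses below 0 libraries with no call. At −34.8 and −26.1 kb KO lies below WT in each condition, and at −23.3 kb, −5.2 kb and the start the highest values are those of WT D5 CTL.

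Inside the gene, the 0.6 kb element (46376862 to 46377299) had calls in 7 WT and 2 KO libraries, both of line 1, with a reference percentile of at most 8.71. The KO minus WT difference in call share was −0.5 (exact permutation p = 0.0417, adjusted p = 0.0881) and did not pass. Across time it was called in both WT libraries of D0, D1 CTL and D1 MR and in 1 of 4 at D5 (D5 minus D1 over both genotypes −0.5, exact permutation p = 0.0833). After the gene, the 2.7 kb element (46379135 to 46379278) was called in 9 WT and 6 KO libraries, the 3.5 kb element (46379823 to 46380176) in 4 and 1, and the 4.3 kb element (46380492 to 46380958) in 10 and 7. Their reference percentiles reached at most 21.6, 24.7 and 30.1. The genotype test for calls was possible at 3.5 kb and did not pass (−0.3, adjusted exact permutation p = 0.353).

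The 20.3 kb element (46396712 to 46396909) lay in Kcnc1, near its lower-coordinate edge at 46396219. It had a peak in 10 of 10 WT libraries and in 0 of 8 from KO, a difference of −1 (exact permutation p = 0.000514, the smallest this design allows, adjusted p = 0.0327). In this test 11.5% of 19646 testable regions passed, 910 higher and 1347 lower in KO, and 100 of 101352 regions, 0.0987%, had calls in all WT and no KO libraries. In WT it was weak until D1, with reference percentiles of 0.02 and 0.48 at D0, 0.02 and 0.70 at D1 CTL and 5.02 and 0.60 at D1 MR. At D5 it had 15.8 and 59.3 in CTL and 3.36 and 6.08 in MR. Its widths were 87 to 186 bp.

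Its call depended on settings. Among the 20000 strongest peaks the difference was −0.2 (exact permutation p = 0.333), and when a peak had to cover 50% of the region it was −0.7 (adjusted exact permutation p = 0.0917). Without WT replicate 1 or 2 it stayed −1 with adjusted exact permutation p of 0.165 and 0.157, where 108 arrangements of the libraries allow no p below 0.00926. Without KO line 1, KO line 2 or the D5 libraries it stayed −1 and passed (0.0499, 0.0493 and 0.0494). KO D0 line 1, without a call here, had 63530 peaks and a background of 5.20, more than both WT D0 libraries in peaks.

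Methionine restriction was compared within genotype and day. At −34.8 kb the MR minus CTL difference was 10.4 points (exact permutation p = 0.0972, adjusted p = 0.331), at −26.1 kb −10.4 points (exact permutation p = 0.213, adjusted p = 0.492) and at −23.3 kb −3.70 points (exact permutation p = 0.528, adjusted p = 0.775). None passed, and neither did any of the 11144 reference regions, 0%, with 2183 at an unadjusted p under 0.05. For calls 0 of 2611 testable regions passed, with 266 at an unadjusted p under 0.05. No Myod1 element was among the testable regions, so the calls cannot decide whether restriction acted at the locus. The interaction of genotype and restriction was −18.5, 20.6 and 25.2 points at these elements (exact permutation p = 0.670, 0.630 and 0.12), and 0 of 11144 regions passed, with 651 at an unadjusted p under 0.05. This test permuted genotype within day and medium, so a genotype difference by itself widens the permuted values. At −34.8 and −26.1 kb, where KO lay far below WT, it therefore cannot decide whether restriction acted differently in the genotypes.

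How many sites the media separated in WT at D5 differed with the ranking. Of 9 elements called in all 4 WT D5 libraries, 7 ranked lower in MR than in CTL without overlap: those at −26.1, −23.3, −12.1, −5.2, 4.3 and 20.3 kb and at the start. The start element had a mean of 51.4 ± 4.0 in CTL and 11.8 ± 11.8 in MR (SD, n = 2 each), and the −5.2 kb element 55.4 ± 3.31 and 21.1 ± 2.54 (SD, n = 2 each). The −34.8 kb element was higher in MR without overlap, at 90.2 ± 1.83 against 68.0 ± 10.4 (SD, n = 2 each). Ranked among all peaks of the list, 3 of the 9 were lower in MR without overlap, at −12.1 and −5.2 kb and at the start, and 2 were higher, at −38.8 and −34.8 kb. By reference percentile, over all 17053 regions called in these libraries, 35.2% were lower and 27.6% higher in MR without overlap. No such share is given for the rank among all peaks of the list, so the counts on that scale describe these elements alone. The MR lists were also longer, with 39538 and 39263 peaks against 22465 and 20847 in CTL. These are values of 2 libraries against 2, for which no test can reach p of 0.05.

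At D1 in WT the picture was mixed. Of 9 elements called in all 4 WT D1 libraries, 3 were lower in MR without overlap, at −26.1 kb (48.6 ± 3.27 against 80.1 ± 1.90 in CTL, SD, n = 2 each), at 4.3 kb and at the start, and 3 were higher, at −34.8, 0.6 and 2.7 kb. By reference percentile, as for these counts, the shares over 37661 regions were 37% and 23.6%. Ranked among all peaks of the list, the same 3 elements were lower in MR without overlap. On that scale 5 were higher, at −34.8, −23.3, 0.6, 2.7 and 20.3 kb. No share over all regions is given for it, so these counts describe the elements alone. The MR lists held 69881 and 57676 peaks, against 60173 and 45545 in CTL. In KO at D1 the −34.8 kb element was higher in MR by 14.6 points and the −26.1 kb element lower by −20.5, the same directions as in WT. The start element differed by 3.97 points in KO, with overlap, and by −21.7 in WT, without, and the −23.3 kb element by 5.69 in KO, without overlap, and by −4.30 in WT, with overlap. Ranked among all peaks of the list, the start element differed by −3.58 in KO, with overlap, and by −7.73 in WT, without. The −23.3 kb element differed by 1.83 in KO, with overlap, and by 5.95 in WT, without. In KO the libraries then overlapped at −34.8 kb (12.7) and did not at −26.1 kb (−28.2).

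Of 7 elements called in all 4 WT CTL libraries of D1 and D5, 4 ranked higher at D5 without overlap, at −26.1, −23.3 and 20.3 kb and at the start, against 34% of 16994 regions. The −38.8 and 4.3 kb elements differed by −11.3 and −6.50 points with overlap. Ranked among all peaks of the list, 2 of the 7 were higher at D5 without overlap, at −23.3 and 20.3 kb. On that scale 4 were lower without overlap, at −38.8, −34.8 and 4.3 kb and at the start. No share over all regions is given for it. The WT CTL lists were shorter at D5, with 22465 and 20847 peaks, than at D1, with 60173 and 45545. In the test over both genotypes and media, 55 reference regions were higher and 3681 lower at D5 on that scale. By reference percentile the start element was higher at D1 CTL than at D0 by 21.7 points in WT without overlap and differed by −1.59 in KO, where the libraries overlapped. The D1 against D0 design allows no p below 0.0556, so this was not tested over regions.

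The other genes of the MyoD pathway were read from peaks within 1 kb of a gene end. Of 34 genes with 63 such regions, 15 genes were called in all 18 libraries. In 7 genes there was no call: the activators Pax3, Pax7, Srf and Mef2a, the inhibitors Twist1 and Mdfi, and Myf5. The same shares over all genes are not given, so these counts do not set the list apart from other genes. For genotype, 17 regions of 15 genes could be tested by rank, of which 6 were lower in KO and 0 higher, beside 22.2% in either direction over all regions. Their median difference was −6.66 points, against 0.53 over all reference regions. By calls 13 regions of 10 genes could be tested, of which 3 were lower and 0 higher, beside 11.5% over all regions, with a median difference in call share of −0.7 against −0.3. The activators Mef2d and Foxo3 fell by rank, as did the inhibitor Snai1, whereas Id1, Id2, Id3, Id4 and Hes1, which restrain MyoD or its targets, and the E protein gene Tcf3 did not pass. All 3 targets that could be ranked were lower: Des, a muscle intermediate filament, Chrna1, a subunit of the muscle acetylcholine receptor, and Cdh15, M-cadherin. These 3 are also myoblast markers, and the other marker that could be ranked, Chrnb1, another subunit of the acetylcholine receptor, was higher in KO by 9.06 points (adjusted exact permutation p = 0.0218).

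The Des region (chromosome 1, 75360118 to 75360557) ranked at 77.1 ± 10.4 in WT (SD, n = 10) and 26.9 ± 20.8 in KO (SD, n = 8). Here n counts libraries of all conditions, and those of KO come from 2 lines. The difference at Des was −51.6 points (exact permutation adjusted p = 0.00834), the nearest in size to the distal Myod1 elements. Foxo3, Mef2d, Chrna1, Cdh15 and Snai1 differed by −22.9, −23.1, −27.0, −31.6 and −32.2 points (adjusted exact permutation p = 0.0115, 0.00834, 0.00834, 0.0195 and 0.0420). Calls fell at Myog (chromosome 1, 134289601 to 134290070), the factor MyoD switches on, from 8 of 10 WT to 0 of 8 KO libraries, at 1 region of Acta1, skeletal actin (chromosome 8, 123894659 to 123895067), from 8 to 0, and at a second Cdh15 region from 10 to 2 (difference −0.8 and adjusted exact permutation p = 0.0403 in each). Over its 4 regions Acta1 was called in 8 WT libraries and 1 from KO, and over its 3 regions Myog in 8 and 0. At each of these 2 genes, 2 regions could be tested for genotype by calls and 1 passed. For restriction and for the interaction 0 list regions passed. For D5 against D1 the only one was Chrna1, lower by −20.4 points (adjusted exact permutation p = 0.0484).

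The calls of the start element, present in 16 libraries and absent from KO line 2 at D5, were shared by 74 of 13641 regions that lie at the end of a single protein-coding gene. Ordered by the Pearson correlation of the reference percentile with the start element over those 16 libraries, the most alike were at Lxn (r = 0.872), Smurf2 (0.851), Dlx3 (0.708), Sec14l5 (0.695) and Lama3 (0.689). The points share libraries and list lengths, and these values are a description.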

How the data were processed

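ATAC-seq was done on 20 libraries of C2C12 cells. A commercial ATAC kit was used for tagmentation after lysis, with 10 PCR cycles and paired-end sequencing, per the labels' protocols. The files are 1 broadPeak list per library, deposited by the authors, with a score, a fold enrichment (a ratio over background), a −log10 p-value and a −log10 q-value per peak. In the deposited lists the score repeats the −log10 q-value, multiplied by 10 and truncated. The build was GRCm38, per the submitters' processing notes. The aligner, filters, duplicate handling, read shift and peak caller are not given in the sources used here, so their effect was not tested. All strengths are the authors' values, used within their own list.

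Read totals were not used here, and background pileup was solved from each list's commonest pair of fold and −log10 p under assumed Poisson formulas. Peaks sharing 1 bp were merged. Genes came from RefSeq (GRCm38.p6), which names no strand; Myod1 is taken as reading towards higher coordinates, from background knowledge.

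Calls and reference percentiles were tested by exact permutation, two-sided, within strata (genotype: 5 conditions, 1944 arrangements; restriction: 432; D5 against D1: 324; interaction: 324), with Benjamini-Hochberg adjustment over all testable regions and a threshold of 0.05. The smallest p were 0.000514, 0.00463 and 0.00309 for the first 3. The scripts were tested on simulated data. Every element is accounted for; those called in at least 9 of 18 libraries, or in the enhancer windows or over the start, are given in detail. Members and lists were chosen with earlier results of these data known. Python 3.11.15, numpy 2.4.6 and scipy 1.17.1 were used. Deviations of KO libraries from their group means correlated by line (r = 0.357 to 0.542), and those of WT libraries did not by replicate number (−0.051 to 0.12). KO libraries of different conditions share 2 lines, so they are not fully independent. Alternatives were other overlap, strength and ranking rules, all 20 libraries, a replicate block and leaving libraries out. The tie-break by correlation among genes with the same calls and the setting without D5 libraries were chosen after seeing the data.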

Additional observations from a re-analysis of the deposited data

Results flagged for a closer look

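In some comparisons the WT and KO libraries moved in opposite directions without overlap by reference percentile. KO at D5 was 1 library, line 2, and these differences were not tested. For restriction at D5 the KO side is 1 library against 1, where overlap is not possible. Values are differences in reference percentile, in points. Restriction at D5 gave 22.2 in WT and −12.4 in KO at −34.8 kb, −9.84 and 20.4 at −26.1 kb, and −28.3 and 12.1 at −23.3 kb. Over both days the interaction at these elements did not pass, in a test that cannot decide it where the genotypes differ strongly, as given above. D5 MR against D1 MR gave 11.7 in WT and −13.3 in KO at −34.8 kb, and 7.97 and −1.42 at −38.8 kb. D5 CTL against D1 CTL gave 9.55 in WT and −28.9 in KO at −26.1 kb. Ranked among all peaks of the list, the WT libraries overlapped for restriction at D5 at −26.1 kb (−0.49) and −23.3 kb (−1.6). At −34.8 kb they stayed higher in MR without overlap (16.3). For D5 CTL against D1 CTL at −26.1 kb they overlapped as well (−0.47).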

How the results depend on the processing

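The regions past the threshold for genotype, 2257 by calls, numbered 0 when a peak had to cover 50% of the region (7844 at an unadjusted p under 0.05), 3513 with all 20 libraries, 1347 without the D5 libraries, and 0 to 5767 when 1 replicate or line was left out (0 without either WT replicate, 3279 without KO line 1 and 5767 without line 2). By rank the 2472 became 737 by width, 0 without the D5 libraries (2647 at an unadjusted p under 0.05) and 0 to 3237 with a replicate or line left out (3237 without KO line 1, 0 otherwise). For D5 against D1 the 0 by calls became 10687 with all 20 libraries, 603 in the replicate block and 0 to 3512 with a replicate or line left out (3512 without KO line 1, 0 without either WT replicate). The 710 by rank became 0 by width, 3736 among all peaks of the list (55 higher and 3681 lower), 0 in the replicate block and 0 with a replicate or line left out (0 to 0, with 1119 to 3181 at an unadjusted p under 0.05). The replicate block changed no call of restriction. Leaving out libraries reduces the arrangements, and the smallest p for genotype then rises to 0.00926 or 0.0370 in 4 of the 5 such settings. In 7 settings, among them restriction without the D5 libraries and the interaction in the replicate block, the smallest p exceeded 0.05, so no count is given.

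Directions turned at single elements, nearly all of differences that had not passed. Ranked by width, restriction gave −7.05 at −34.8 kb, 7.88 at −26.1 kb and 9.76 at −23.3 kb, the interaction 7.36 at −34.8 kb and −11.3 at −23.3 kb, and D5 against D1 −16.3 at −23.3 kb. Among all peaks of the list, restriction gave 0.24 at −26.1 kb and 2.34 at −23.3 kb, and D5 against D1 gave −12.5, −19.0 and −0.57 at −34.8, −26.1 and −23.3 kb. With 50% coverage the genotype difference in calls at 0.6 kb was 0.1. The D5 difference at −23.3 kb is the exception that had passed. No genotype difference by rank turned in any setting run. Depth limits what missing calls show, most of all in KO at D5, and strengths compare sites only within a list.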
